A study of Mus musculus with 8 samples.

Results

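The genes described here are 10 markers of stem and progenitor cells of the stomach and other epithelia, chosen by name from the 53170 named genes of the deposited count table: Lgr4, Lgr5, Lgr6, Prom1, Lrig1, Tnfrsf19, Bmi1, Runx1, Cd44 and Msi1. All 10 had a row and at least 1 read, and 8 had enough reads to be tested; Lgr6 and Msi1 did not. RNA was sequenced from 8 libraries of organoids, epithelial cells grown in 3 dimensions, which were set up from mouse hindstomach, the glandular part of the organ, at embryonic day 18.5 and kept for 5 days in growth medium. The 4 control libraries carried Shh-Cre, a recombinase expressed from the Shh gene and so in the epithelium of the foregut. The 4 YAP5SA libraries carried Shh-Cre and YAP5SA, a form of the transcriptional coactivator YAP that the Hippo kinases can no longer switch off, so the Cre was present in every library and the transgene is the labelled difference. The promoter of the transgene, and whether the libraries of a group came from separate embryos or cultures, are not stated in the labels; p-values therefore cover library-to-library spread alone, and that spread may be technical.

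Total counts were between 13672268 and 19710648 per library and the share of mitochondrial reads was 4.38% to 5.18%, with control 4 lowest in both. Spread between libraries of a group was set against counting error by a chi-square per gene. Pairs with control 4 had 12.9 to 19.3 and the other control pairs 3.60 to 10.1. YAP5SA pairs had 5.06 to 30.7, the most for YAP5SA 3 and YAP5SA 4. Endogenous Yap1 did not pass the test (160.0 ± 7.2 CPM, counts relative to the scaled size of the library, in controls against 153.3 ± 4.2 CPM with YAP5SA; adjusted p = 0.339, edgeR) and does not check the transgene. Xist, made by female cells, reached 675.6 to 1049 CPM in controls but no more than 2.76 CPM in YAP5SA, while 4 genes of the Y chromosome (Ddx3y, Eif2s3y, Kdm5d and Uty) had 2 to 6 counts each over all controls and 2804 to 6735 over the YAP5SA libraries. Sex and genotype therefore cannot be told apart in any result given here, although none of the 10 markers lies on a sex chromosome. Epithelial keratin, cadherin and claudin markers were abundant in every library (7 genes summing to 7785 to 8360 CPM in controls and 6433 to 6667 CPM in YAP5SA). The stomach claudin Cldn18, at 1353 ± 42 CPM in controls, was nearly absent from the libraries labelled YAP5SA (2.05 ± 1.31 CPM). Of 6 genes of stomach identity, 5 fell, among them Gkn1 (53.5 ± 8.3 to 0.0897 ± 0.1042 CPM), Foxa2 (16.9 ± 1.4 to 0.771 ± 0.236 CPM) and Gata4 (77.3 ± 5.1 to 17.6 ± 2.6 CPM), and Sox2 rose (log2 fold change 0.64). Of 3 tested markers of squamous forestomach, Krt4 rose (116.4 ± 23.5 to 951.0 ± 61.5 CPM), Ivl fell (31.4 ± 2.2 to 3.04 ± 0.28 CPM) and Krt13 did not pass the test (2.30 ± 0.46 and 2.69 ± 0.90 CPM). The part of these shifts in the changes of the markers was not tested.

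Stem cells of the gastric epithelium sit in the isthmus and at the base of the glands, and their markers are proteins of unlike function. LGR4, LGR5 and LGR6 are receptors for R-spondins, secreted proteins that strengthen Wnt signalling by removing the ubiquitin ligases RNF43 and ZNRF3 from the cell surface. PROM1, TNFRSF19 (TROY), CD44 and LRIG1 are other membrane proteins, and BMI1, RUNX1 and MSI1 act in the nucleus or on RNA.

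The markers did not move as one group. All 8 tested markers differed between the groups at an adjusted p under 0.05, 5 lower and 3 higher in YAP5SA, where 49.1% of the 14058 tested genes did so (25.5% lower and 23.6% higher). Among the 4624 tested genes at least as abundant as the lowest tested marker the share was 58.5%. The median log2 fold change of the 8 was −0.63, against 0.00 for all tested genes, and their median absolute log2 fold change was 1.03 against 0.26. A change of at least 2-fold was seen in 4 of the 8 (Prom1, Tnfrsf19, Lgr4 and Runx1), against 13.8% of tested genes. Prom1 and Tnfrsf19 fell at least 4-fold, as did 4.38% of tested genes, and Lgr4 fell 3.91-fold. For none of the 8 did the group ranges overlap, and 45.7% of all tested genes were likewise free of overlap. Bmi1 rests on a narrow gap, and its groups overlapped when libraries were scaled by size alone or by the upper quartile. Each of the 8 had at least 595 counts in every control and 627 in every YAP5SA library, so none passed the filter on low counts through 1 group alone. In whole organoids a lower level can mean fewer cells of a type or less RNA per cell, which cannot be told apart.

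**Figure D1:**
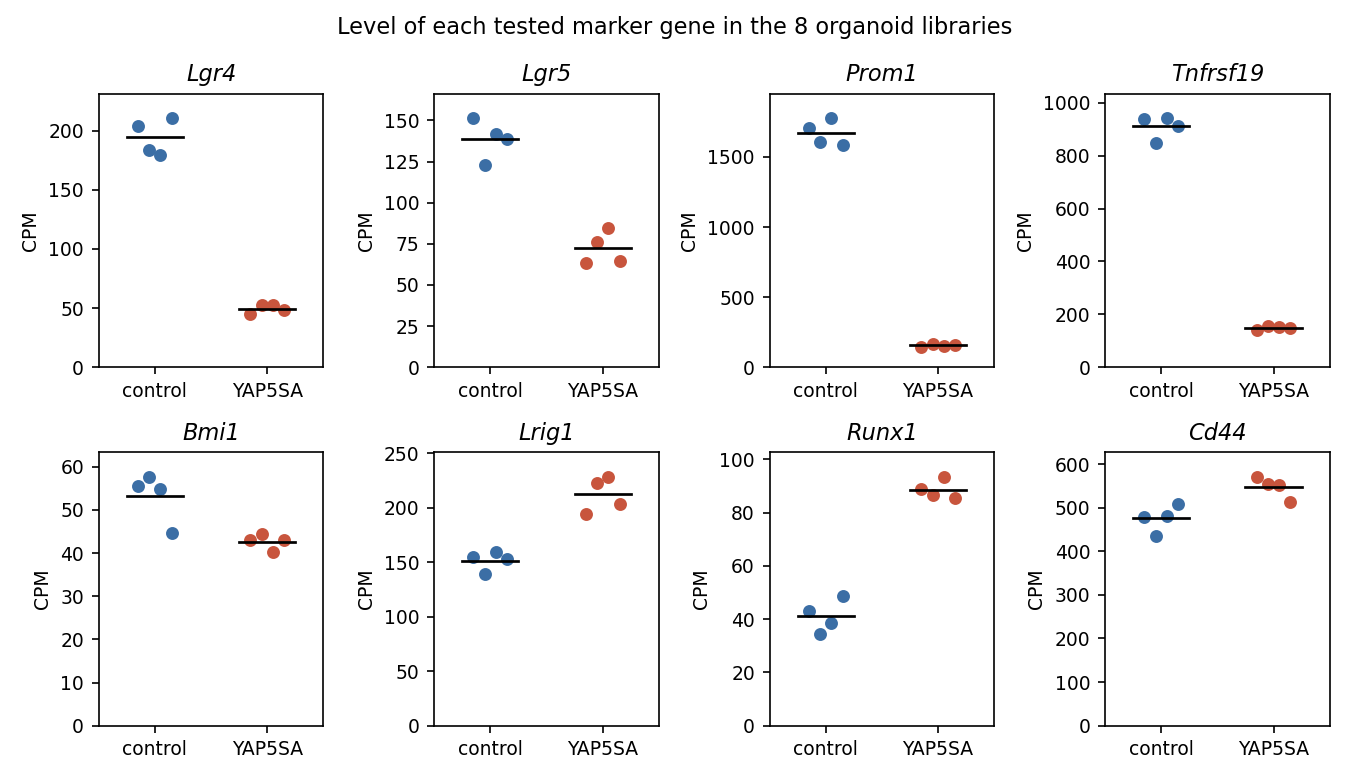
Level in CPM (vertical axes starting at 0) of the 8 tested markers in the 4 control (blue) and 4 YAP5SA (red) libraries; each point is a library and each bar a group mean. Lgr4, Lgr5, Prom1, Tnfrsf19 and Bmi1 were lower in YAP5SA and Lrig1, Runx1 and Cd44 were higher, with the nearest approach of the groups at Bmi1 (control 4 at 44.6 CPM, YAP5SA 2 at 44.4 CPM).

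Promoter sequence is shown for 4 markers to set the letters of the TEAD core motif, the DNA element bound by the partners of YAP, beside genes that moved in opposite directions. The windows are the 250 bases before an annotated transcription start, read 5′ to 3′ on the strand of the gene from RefSeq on build GRCm38.p6, and 8 of the 10 markers had an entry. The entries for Runx1 and Tnfrsf19 give several starts; the Runx1 window is at the downstream (proximal) start and the Tnfrsf19 window at the upstream one. Capitals mark GGAATG, or CATTCC where it lies on the other strand.
Lgr4, chr2:109917397-109917646, + strand: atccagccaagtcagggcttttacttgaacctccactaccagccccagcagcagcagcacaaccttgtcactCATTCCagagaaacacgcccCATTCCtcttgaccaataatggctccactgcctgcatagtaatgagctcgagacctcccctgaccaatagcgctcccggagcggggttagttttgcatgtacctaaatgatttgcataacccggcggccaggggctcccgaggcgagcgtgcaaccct
Bmi1, chr2:18676768-18677017, + strand: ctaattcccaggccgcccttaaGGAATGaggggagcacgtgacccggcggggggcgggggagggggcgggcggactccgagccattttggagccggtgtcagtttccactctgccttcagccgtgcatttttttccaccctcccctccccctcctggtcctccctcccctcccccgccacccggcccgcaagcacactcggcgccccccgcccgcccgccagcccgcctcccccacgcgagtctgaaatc
Runx1, chr16:92697330-92697579, − strand: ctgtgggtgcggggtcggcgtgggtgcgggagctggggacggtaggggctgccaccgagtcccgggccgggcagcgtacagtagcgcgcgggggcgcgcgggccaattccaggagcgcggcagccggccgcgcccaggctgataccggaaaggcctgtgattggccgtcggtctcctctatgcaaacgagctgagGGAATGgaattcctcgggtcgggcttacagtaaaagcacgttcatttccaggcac
Tnfrsf19, chr14:61046856-61047105, − strand: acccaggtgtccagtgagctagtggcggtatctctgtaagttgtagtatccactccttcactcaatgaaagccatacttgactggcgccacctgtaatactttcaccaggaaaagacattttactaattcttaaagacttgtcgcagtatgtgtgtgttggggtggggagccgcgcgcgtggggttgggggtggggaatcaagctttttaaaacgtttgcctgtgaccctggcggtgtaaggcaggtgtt

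GGAATG occurred on either strand in 12.6% of the 32851 promoter windows of this length in the table. The 8 markers with an entry had 11 windows. Among these it was found in 3 of the 11 windows, 1 each of Lgr4, Bmi1 and Runx1. Lgr4 had 2 matches (173 to 178 and 153 to 158 bases before the start). Bmi1 had 1 (223 to 228 bases before) and Runx1 had 1 (50 to 55 bases before). The window at the other Runx1 start, not shown, holds no match. Of these 3 genes, Lgr4 and Bmi1 were lower in YAP5SA and Runx1 was higher. Binding of TEAD factors at the matches was not tested. The Tnfrsf19 window shown holds no match, which says only that these letters are not in this window. The letters ATCAAAG of the TCF and LEF factors of the Wnt pathway were found at the other Tnfrsf19 start alone among the markers (3.21% of all windows hold them). Those of AP-1 (TGANTCA) were found at both Prom1 starts and no other (6.75% of all windows). At the upstream Prom1 start all 250 bases of the window lie in annotated exons of Gm16401 and Prom1.

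Of the R-spondin receptors, Lgr4 and Lgr5 fell, and by unequal amounts. LGR4 is broadly expressed in epithelia, and its gene was counted at 203.5, 183.6, 179.4 and 210.2 CPM in the 4 controls and at 44.7, 52.2, 52.7 and 48.7 CPM in the 4 YAP5SA libraries. Every YAP5SA library was far below every control. The log2 fold change of Lgr4 was −1.97 ± 0.07 (SE; adjusted p = 7.01e-14, edgeR). LGR5 is the receptor that marks stem cells at the gland base of the antrum and a set of chief cells of the corpus. Lgr5 was at 151.2, 122.7, 141.6 and 138.8 CPM in controls and at 63.5, 76.4, 84.5 and 64.5 CPM in YAP5SA. The groups were again apart, by a smaller step (log2 fold change −0.94 ± 0.09 SE, adjusted p = 2.47e-07, edgeR). Lgr5 had the widest spread of the tested markers in YAP5SA, with a coefficient of variation of 13.9%.

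LGR6, a marker of stem cells in skin and other stratified epithelia, was nearly absent. Lgr6 had 4, 4, 2 and 4 counts in controls and 4, 4, 1 and 0 in YAP5SA. The ratio of its pooled levels, YAP5SA over control, was 0.65 (95% exact counting interval 0.25 to 1.62), so no difference was detectable at this depth.

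Read for read, the balance of the family turned. The ratio of Lgr5 to Lgr4 counts was 0.743, 0.668, 0.789 and 0.660 in the controls and 1.42, 1.46, 1.60 and 1.32 in the YAP5SA libraries. Every YAP5SA library had more Lgr5 than Lgr4 reads and every control fewer. The log2 ratio differed by 1.02 (two-sided exact permutation test over 4 against 4 libraries, p = 0.0286, the smallest this design allows). After adjustment over the 3 LGR ratios the difference missed the threshold (exact permutation test, adjusted p = 0.0857). An adjusted value under 0.05 was possible only if a ratio with Lgr6 also reached the smallest p. The adjusted test therefore cannot decide on the ratio of Lgr5 to Lgr4 by itself. The ratios of Lgr6 to Lgr4 and to Lgr5, which rest on 0 to 4 Lgr6 counts a library, had exact permutation p of 0.257 and 0.971 (adjusted 0.386 and 0.971). Per kb of exon, Lgr4 was at 33.0 ± 2.5 CPM per kb in controls and Lgr5 at 13.5 ± 1.2 (SD, n = 4). In YAP5SA they were at 8.42 ± 0.63 and 7.04 ± 0.98 CPM per kb, and their ranges overlapped. The summed level of the 3 receptors was 306.6 to 355.0 CPM in controls and 108.4 to 137.3 CPM with the transgene.

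The ligands of these receptors were almost uncounted in the organoids: Rspo1, Rspo3 and Rspo4 had 0 counts in all 8 libraries, which allows up to 0.0446 CPM over the controls and 0.0454 CPM over the YAP5SA libraries (3 counts), and Rspo2 averaged at most 0.01 CPM. Of 12 tested R-spondin and Wnt receptor genes outside the markers 4 fell and 3 rose (median log2 fold change 0.05), with the smallest adjusted p for the Frizzled genes Fzd5 (−1.85), Fzd3 (−0.87) and Fzd1 (0.83). Of the ligases that R-spondins and LGR receptors remove, Rnf43 was higher (109.9 ± 5.8 to 147.6 ± 8.1 CPM), and Znrf3 did not pass the test (34.2 ± 2.9 and 37.2 ± 4.7 CPM, log2 fold change 0.13, adjusted p = 0.270, edgeR). Of 12 tested Wnt target genes 6 fell and 4 rose (median −0.18); the feedback inhibitor genes Nkd1 and Axin2 went opposite ways (−5.31 and 0.82) and Ephb3 rose (0.98).

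The sharpest fall among the markers was that of Prom1. It encodes prominin-1 (CD133), a cholesterol-binding protein of membrane protrusions that marks progenitors of several epithelia. Its level was 1707, 1610, 1775 and 1588 CPM in the controls and 145.0, 166.9, 153.7 and 155.2 CPM in YAP5SA. Prom1 was the most abundant marker in controls, and all YAP5SA libraries lay far below. The gene fell 10.8-fold (log2 fold change −3.43 ± 0.06 SE, adjusted p = 1.18e-17, edgeR), with 2.32% of all tested genes showing a lower log2 fold change. Its relative Prom2 rose (18.5 ± 3.6 to 53.6 ± 3.4 CPM). Of the 5 tested genes of a list of Prom2 and microvillus components, 4 fell and Prom2 alone rose (median −2.11). The microvillus genes Vil1 and Eps8 had log2 fold changes of −3.03 and −1.33, and the brush border cadherin Cdhr2 went from 28.0 ± 2.9 CPM to 1 count over the 4 YAP5SA libraries.

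Tnfrsf19 encodes TROY, a receptor of the TNF family that is itself a Wnt target gene and marks a set of gastric chief cells able to act as stem cells. It was counted at 939.9, 849.4, 941.0 and 911.9 CPM in the controls. The YAP5SA libraries held 140.2, 155.1, 151.1 and 146.9 CPM. Both groups were tight (coefficients of variation 4.71% and 4.29%), and the gap between them was many times the spread within either. Tnfrsf19 fell 6.14-fold (log2 fold change −2.62 ± 0.05 SE, adjusted p = 8.46e-17, edgeR). The chief cell markers Pgc, Cblif, Cym and Bhlha15 fell as well, and Lipf, with 13 counts over the controls and 0 over the YAP5SA libraries, was not tested. The 5 genes had sums of 1340 to 1974 CPM in the controls against 0.883 to 6.18 CPM in YAP5SA; their part in the fall of Tnfrsf19 and Lgr5 was not tested. Of 11 tested TNF receptor and TRAF adaptor genes 5 fell and 1 rose (median −0.15), with Eda2r at −0.89, Traf3 at −1.09 and Tnfrsf11a, the RANK gene, at −2.06.

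Together Prom1 and Tnfrsf19 carried most of the marker reads in controls and a minor part in YAP5SA. They took 69.4% to 72.0% of the summed CPM of the 10 markers in controls and 22.1% to 24.0% in YAP5SA. The sum of all 10 was 3431 to 3772 CPM in controls and 1259 to 1360 CPM in YAP5SA. Without those genes it was 1054 ± 58 CPM in controls against 1013 ± 42 CPM in YAP5SA, and the ranges of the groups overlapped (971.9 to 1103 and 957.1 to 1051 CPM).

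**Figure D2:**
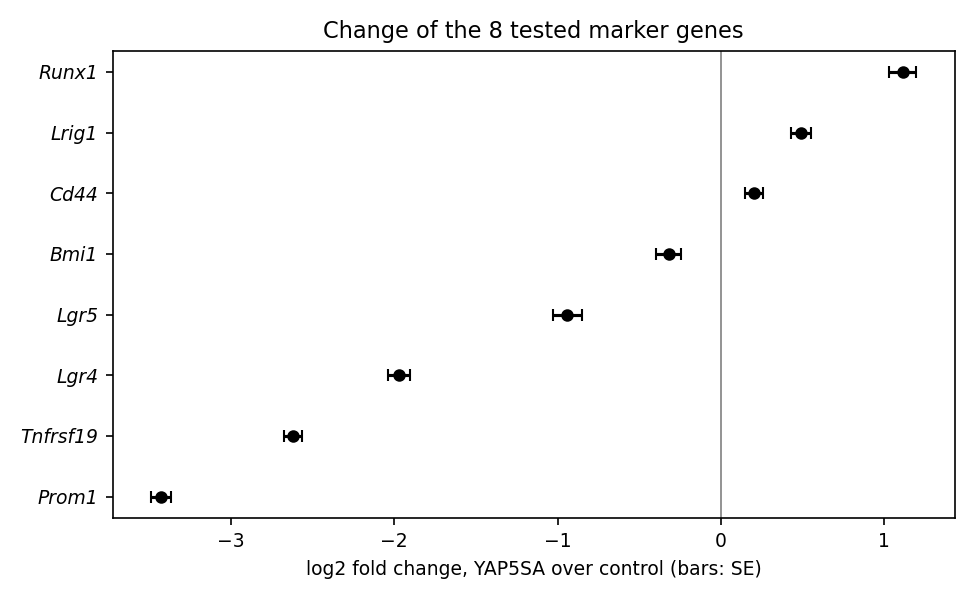
Log2 fold change (horizontal axis, YAP5SA over control) of the 8 tested markers with standard errors from the edgeR fit. The values run from −3.43 for Prom1 to 1.11 for Runx1, and the standard errors are 0.05 to 0.09.

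Cd44 and Lrig1, membrane proteins as well, went the other way. CD44 is the receptor for hyaluronan, an extracellular sugar polymer, and marks proliferating cells of the gastric isthmus. Cd44 was at 477.8, 434.3, 481.7 and 507.2 CPM in the controls and at 570.5, 555.0, 551.4 and 511.8 CPM in YAP5SA. The highest control lay just under the lowest YAP5SA library. Its rise of 1.15-fold was the smallest change among the tested markers (log2 fold change 0.20 ± 0.06 SE, adjusted p = 0.00513, edgeR). With Prom1 and Tnfrsf19 lower, the share of Cd44 in the summed CPM of the 10 markers went from 13.1% ± 0.7 to 41.6% ± 1.7 (SD, n = 4). Of 10 tested genes for hyaluronan enzymes and CD44 partners 5 fell and 3 rose (median −0.10). The secreted CD44 ligand gene Spp1 had a log2 fold change of −6.12, radixin (Rdx), which ties CD44 to actin, one of 1.18, and Esrp2, a splicing factor acting on CD44 variant exons, one of −0.76. Genes related to these moved otherwise. Ezr, a relative of Rdx, fell (1229 ± 73 to 971 ± 62 CPM), and Msn, another, did not pass the test. Esrp1, the relative of Esrp2, rose (151.8 ± 9.5 to 187.6 ± 5.1 CPM). The read counts are per gene and do not separate CD44 isoforms.

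LRIG1 is a membrane protein that lowers the amount of EGF receptors and marks quiescent or slowly dividing stem cells in gut, skin and stomach. Lrig1 was at 155.0, 139.1, 159.2 and 152.7 CPM in controls and at 194.6, 223.3, 228.5 and 203.8 CPM in YAP5SA. All YAP5SA libraries were above all controls. The gene rose 1.40-fold (log2 fold change 0.49 ± 0.06 SE, adjusted p = 2.46e-06, edgeR). Its relatives and the receptors it acts on rose beside it: of 6 tested LRIG, EGF receptor and Met genes 5 rose and none fell (median 0.51), including Lrig3 (0.99), Lrig2 (0.65) and Erbb2 (0.53). The remaining one, Erbb3, had a log2 fold change of 0.14 (adjusted p = 0.111, edgeR).

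Among the nuclear and RNA-binding markers, Runx1 had the largest rise. RUNX1 is a DNA-binding transcription factor best known from blood formation, and an enhancer of its gene marks stem cells of the gastric isthmus. Runx1 was at 43.0, 34.3, 38.6 and 48.8 CPM in controls and at 88.9, 86.5, 93.5 and 85.4 CPM in YAP5SA. The controls were the more scattered group (coefficient of variation 15.1% against 4.05%), and the lowest YAP5SA library was still well above the highest control. Runx1 rose 2.16-fold (log2 fold change 1.11 ± 0.09 SE, adjusted p = 6.73e-09, edgeR). Since leukocytes also express Runx1 and Cd44, their markers are given beside it: 7 of 9 leukocyte genes were below a mean of 1 CPM in both groups, among them the pan-leukocyte gene Ptprc (0.51 ± 0.18 and 0.39 ± 0.11 CPM), and the list summed to 19.4 to 38.7 CPM in controls and 9.71 to 10.7 CPM in YAP5SA. Most of that sum was the lysosomal gene Cd68, which fell (28.6 ± 8.0 to 7.88 ± 1.15 CPM). The other tested leukocyte gene, the macrophage receptor gene Csf1r, rose as Runx1 did, from a very low level (0.191 ± 0.074 to 1.49 ± 0.60 CPM, log2 fold change 2.90, adjusted p = 3.25e-05, edgeR). The part of leukocytes in the rise of Runx1 was not tested. Of 8 tested RUNX relatives and cofactors 4 fell and 3 rose (median −0.13), with Tle3 at 1.01 and Cbfa2t3 at −2.49, while Runx3 went from 0.15 ± 0.12 to 1.91 ± 0.49 CPM and Cbfb, the shared partner of all RUNX factors, had a log2 fold change of 0.02 (adjusted p = 0.744, edgeR).

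Bmi1 encodes a subunit of Polycomb repressive complex 1, which keeps genes silent by modifying histones. It was at 55.5, 57.7, 54.8 and 44.6 CPM in controls and at 43.0, 44.4, 40.4 and 42.9 CPM in YAP5SA. Control 4 was close to the YAP5SA libraries and the other controls stood above them. Bmi1 was 1.25-fold lower (log2 fold change −0.32 ± 0.08 SE, adjusted p = 0.00214, edgeR), and 22.0% of all tested genes had a lower log2 fold change. Other Polycomb genes went both ways: of 19 tested in a list that also holds their target Cdkn2a, 8 rose and 3 fell (median 0.13). Those that fell with Bmi1 were Pcgf6 at −0.78, the ligase gene Rnf2 at −0.44 and Pcgf3 at −0.22, while the methyltransferase gene Ezh2 was at 0.43. Cdkn2a, a known target of BMI1 repression, was at 31.8 ± 3.2 CPM in controls against 30.5 ± 3.1 CPM in YAP5SA (adjusted p = 0.592, edgeR).

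MSI1, an RNA-binding protein that represses the translation of Numb, is a classical marker of gut progenitors and was almost uncounted in these organoids. Msi1 had 3 counts in control 1 and 0 in each of the other 7 libraries; both groups were at or under 3 counts in all, and no fold is given. Its paralog Msi2 was expressed, with 120.4 ± 10.7 CPM in controls against 141.6 ± 7.1 CPM in YAP5SA (log2 fold change 0.24, adjusted p = 0.00513, edgeR). Of 9 tested genes of a list of Msi2 and the Notch pathway 8 rose and 1 fell (median 0.40), with Hes1 at 0.53, Jag2 at 0.50 and Numb at 0.50. The other genes of the list had too few counts to be tested. Dll1, Dll4 and Hey1 had 59, 36 and 29 counts over the controls and 3, 5 and 6 over the YAP5SA libraries. Notch4 went the other way, with 10 and 41.

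The order of the markers by abundance changed between the groups. Levels of different genes are compared per kb of merged exon, with lengths from GENCODE M21. In controls the order was Prom1 (232.8 ± 12.2 CPM per kb), Tnfrsf19 (192.2 ± 9.1), Cd44 (70.1 ± 4.5), Lgr4, Lrig1 (27.1 ± 1.6), Lgr5, Bmi1 (13.4 ± 1.5) and Runx1 (3.42 ± 0.52), all as mean ± SD of CPM per kb over 4 libraries. Only Lgr5 and Bmi1 were neighbours with overlapping ranges among these 8. In YAP5SA Cd44 came first (80.8 ± 3.7 CPM per kb), followed by Lrig1 (38.1 ± 2.9), Tnfrsf19 (31.3 ± 1.3), Prom1 (21.6 ± 1.3), Bmi1 (10.7 ± 0.4), Lgr4, Runx1 (7.37 ± 0.30) and Lgr5. There Lgr4, Runx1 and Lgr5 could not be ordered, since the ranges of neighbours overlapped. The highest of the 8 stood 68.0 times above the lowest in controls (Prom1 and Runx1) and 11.5 times in YAP5SA (Cd44 and Lgr5). Merged exons join all annotated transcripts of a gene, and the order depends on that length. Of the 8, Runx1 (12025 bases) and Lgr5 (10264 bases) had the longest. By CPM alone the lowest in YAP5SA was Bmi1 (42.7 ± 1.7 CPM).

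**Figure D3:**
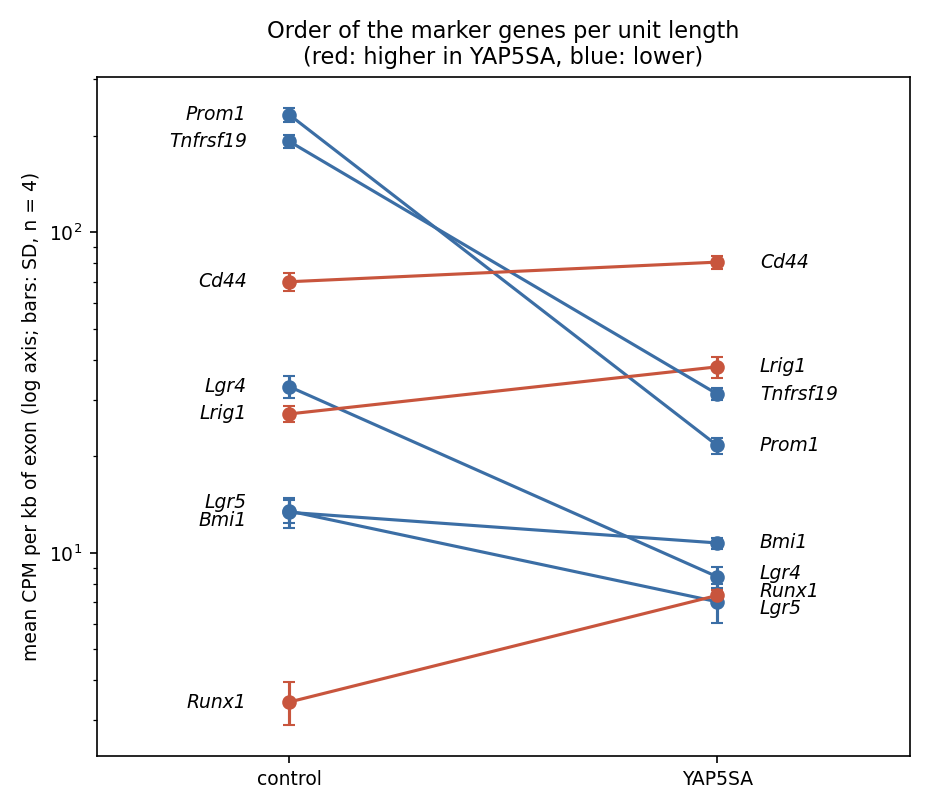
Mean level of the 8 tested markers in CPM per kb of exon (logarithmic vertical axis) in controls and YAP5SA, with SD over 4 libraries; lines join the values of a gene. Prom1 drops from 232.8 to 21.6 and Tnfrsf19 from 192.2 to 31.3, below Cd44 at 80.8 and Lrig1 at 38.1 in YAP5SA.

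Prom1 and Tnfrsf19 combined a high control level with a deep fall. Of 89 tested genes at or above the control level of Tnfrsf19, 5 fell at least 4-fold, these markers included. Among all 14058 tested genes 616 fell that far (4.38%), a share close to that among the 89. Of the 89, 39 were called lower, where 25.5% of all tested genes were. The cutoff is set by Tnfrsf19 itself, so both markers lie within it by construction. By rank of log2 fold change from the lowest, Prom1 stood at 327, Tnfrsf19 at 455, Lgr4 at 635 and Lgr5 at 1290 of 14058. From the highest, Runx1 stood at 651, Lrig1 at 1900 and Cd44 at 4104.

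**Figure D4:**
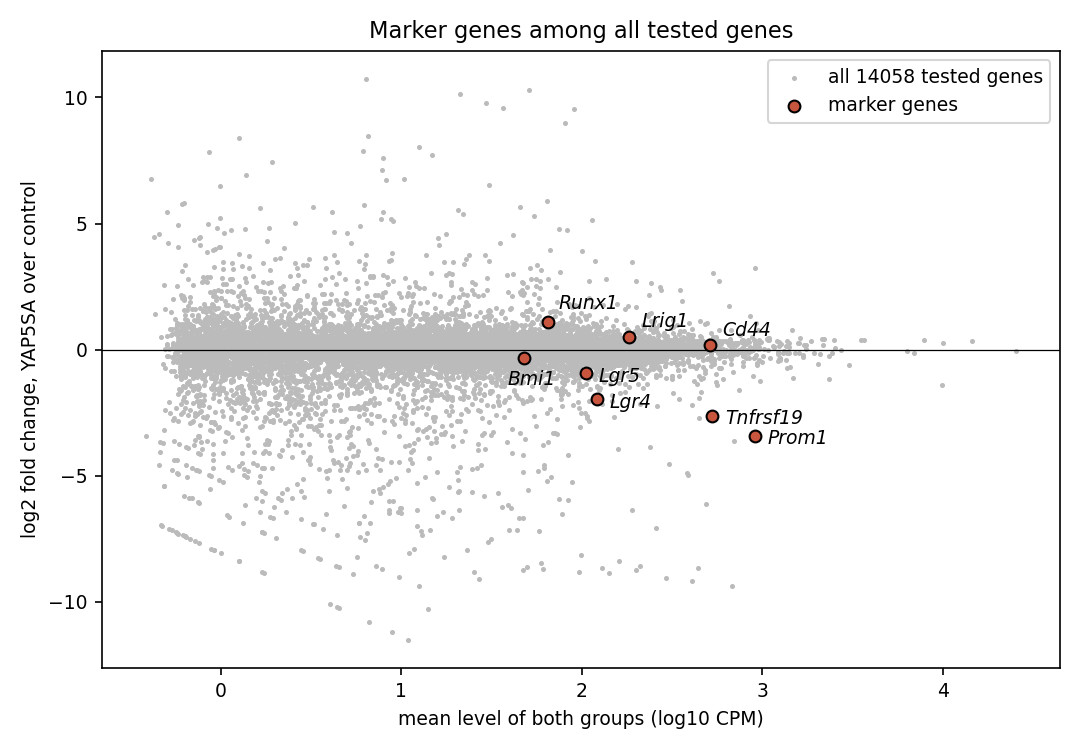
Log2 fold change (vertical axis, YAP5SA over control) against the mean level of both groups (log10 CPM) for 14058 tested genes (grey) and the 8 tested markers (red). Prom1 (−3.43) and Tnfrsf19 (−2.62) lie at the lower right, where grey points are sparse, and Cd44 (0.20) and Bmi1 (−0.32) lie near the bulk of the genes.

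The genes most like the 4 markers with the largest changes were sought by the Euclidean distance between log2 CPM profiles (prior count of 2) over the 8 libraries, each centred on its own mean. Nearest to Prom1 were Cyp2j6 (distance 0.27), Slc40a1 (0.28) and Maob (0.33); Maob is X-linked, had 84 counts over the controls and 0 over the YAP5SA libraries, and was at least 27.5-fold lower (3 counts over the group taken as the floor), so its distance and place depend on the prior count. Nearest to Tnfrsf19 were Sel1l3 (0.24), Dsc2 (0.28) and Gstt3 (0.30), and nearest to Lgr4 were Arhgap6 (0.19), Rcan1 (0.22) and Wdfy1 (0.30). Runx1 was most like Arhgef17 (0.16), Lamb2 (0.18) and Ltbp3 (0.19). Such distances follow mainly the difference between the groups, which all these genes share with many others.

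Stem and progenitor markers outside the 10 also went both ways. Of 13 tested, 6 fell and 5 rose (median −0.02). The smallest adjusted p were those of Hopx, a marker of slowly cycling intestinal cells (30.5 ± 3.4 to 114.5 ± 10.2 CPM), Aqp5, a marker of antral stem cells (log2 fold change 1.06), and Aldh1a1 (−1.03). Larger falls were those of Bhlha15 (−7.20), also a chief cell gene, and Smoc2 (−2.66), at lower levels (25.4 ± 11.8 and 2.35 ± 1.34 CPM in controls). Cckbr, the gastrin receptor gene of antral progenitors, had 0 counts in all libraries, and Olfm4 was at 0.67 ± 0.30 CPM in controls against 0.05 ± 0.06 CPM in YAP5SA. Mesenchymal cells, a source of R-spondins and of some Lgr5 and Lgr6 in tissue, left almost no trace, with the group means of all 8 of their markers under 1 CPM and sums of 1.65 to 4.23 CPM in controls and 0.607 to 1.71 CPM in YAP5SA.

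In the 10 lists of related genes, between 54.5% and 100% of the tested genes passed the test, against 49.1% of all tested genes. The share was 58.5% among genes at least as abundant as the lowest tested marker. The TNF receptor, Polycomb and R-spondin lists (54.5%, 57.9% and 58.3%) were under that second share.

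**Figure D5:**
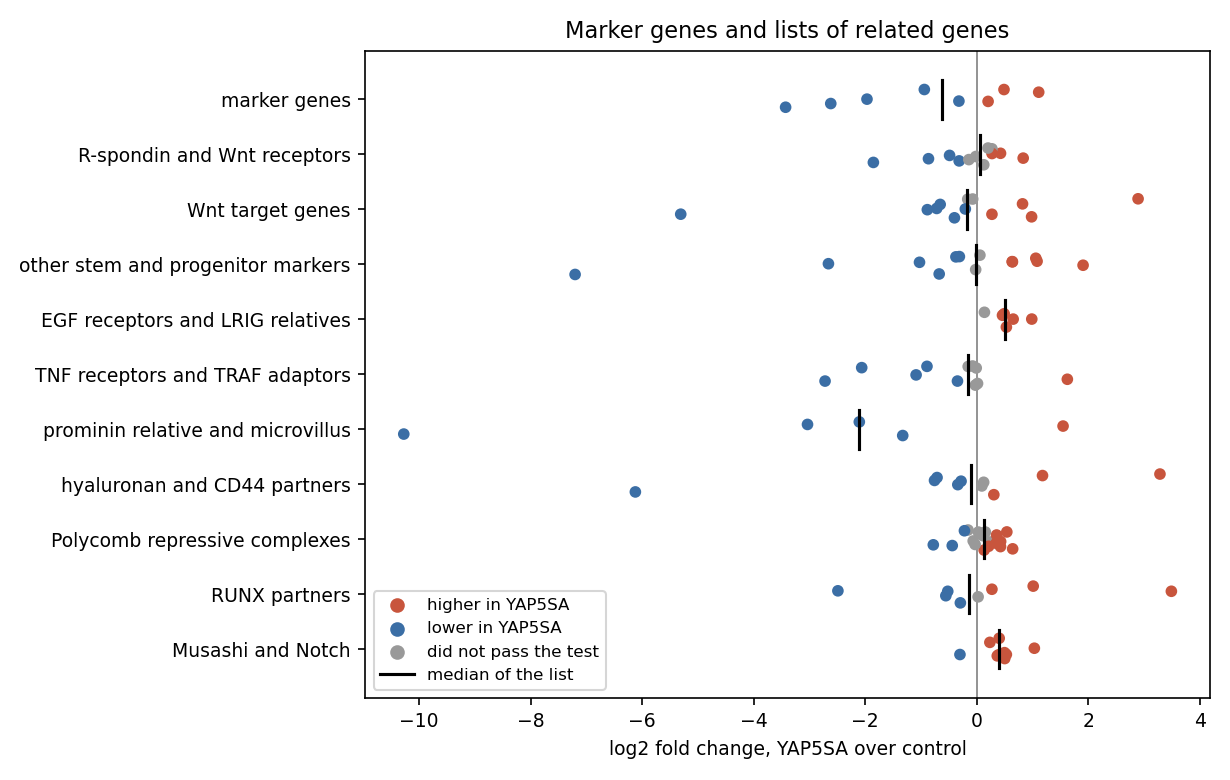
Log2 fold change (horizontal axis, YAP5SA over control) of the tested genes of the marker set and of 10 lists of related genes; each point is a gene, coloured by whether it was higher, lower or did not pass the test, and black bars are medians. The median of the markers is −0.63, that of the Prom2 and microvillus list −2.11, and that of the EGF receptor and LRIG list 0.51.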

How the data were processed

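The deposited values are raw read counts per gene symbol, 1 column per library; the submitters' processing notes name build mm9, HTSeq 0.6.1, HISAT2 2.0.1 and cutadapt. For annotation, counting options and strand setting, the sources used here say nothing, so reads of overlapping antisense genes cannot be told apart. Of 56691 rows, 2639 without a gene name (0.190% to 0.221% of counts) were left out and rows sharing a symbol were summed. Genes passing filterByExpr (14058) were scaled by TMM. The test was that of edgeR 4.0.16 under R 4.3.3 (quasi-likelihood, robust, genotype as the only term), with Benjamini-Hochberg adjustment over all tested genes and calls at an adjusted p under 0.05. CPM use TMM-scaled library sizes, ± is the SD of 4 libraries unless SE is stated, and SE is the log2 fold change over the square root of F. Exact permutation tests compared LGR ratios with 0.5 added to each count. Intervals and floors cover counting error only.

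On simulated counts 69.4% of 49 changes of 1.5-fold and 88.0% of 50 of 2-fold were recovered among 14045 genes tested. At 4-fold 100% of 49 were recovered and at 8-fold 98% of 50, with 6 false calls. Far fewer genes were called there (182) than in the data (6899), so the adjustment of p-values was stricter. These shares therefore do not give the rate of recovery in the data. Exon lengths came from GENCODE M21 (GRCm38, matched for 10 of 10 symbols), promoters from RefSeq (GRCm38.p6); no coordinates were set against mm9. Exons of Slc25a26, Gm16401 and Gm26626 overlap Lrig1, Prom1 and Runx1 on the other strand in that annotation, at up to 4.07 CPM. The markers and lists were chosen with earlier results of these data known. Genes named were the 10 markers, in each related list the 3 tested genes with the smallest adjusted p, the 3 genes with profiles nearest to each of the 4 most changed markers, and label checks. All other genes named (such as ligands, ligases, paralogs, cell type markers and single members of the lists) were chosen after their values were seen. Alternatives were library-size and upper-quartile scaling, DESeq2 1.42.0, no filter, a filter of 1 CPM in 4 libraries, a threshold of 0.01, a replicate block, and leaving out each library.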

Additional observations from a re-analysis of the deposited data

Results flagged for a closer look

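The level of Msi1 in control 1, 0.189 CPM from 3 counts, stood apart from the other controls, all of which had 0. With 0 in the other controls, any count in the remaining library meets the criterion for a library far from the rest, so the rate of about 1 in 20 at which chance flags a group does not apply. It was the only one of 19 sets of 4 library values examined that met it.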

How the results depend on the processing

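Under all 15 alternatives to the fit, the 8 tested markers stayed called, 3 higher and 5 lower, and each kept its direction. Leaving out each library in turn gave log2 fold changes of −3.47 to −3.40 for Prom1, −2.65 to −2.60 for Tnfrsf19, −2.01 to −1.92 for Lgr4, −1.03 to −0.89 for Lgr5, −0.39 to −0.28 for Bmi1, 0.16 to 0.24 for Cd44, 0.44 to 0.52 for Lrig1 and 1.03 to 1.20 for Runx1. The largest adjusted p over all alternatives was 0.0231, for Cd44 (its smallest was 0.000252). With the sample number as a replicate block, 8 markers were again called. Deviations of same-numbered libraries correlated at −0.08 to 0.09, within the range of differently numbered ones (−0.18 to 0.14). Pairing by number was thus not seen, but correlations this low cannot exclude it. No scaling moved the median of all genes by more than 0.03 (log2). Over all genes 5377 to 7611 were called. Among the LGR ratios, the difference of the log2 ratio of Lgr5 to Lgr4 was 0.97 to 1.07 when a library was left out. Its adjusted p fell to 0.0429 (exact permutation) without YAP5SA 4 (1.07), only because Lgr6 to Lgr4 also reached the smallest p there. The difference of the log2 ratio of Lgr6 to Lgr4 ranged from 0.53 to 1.67, with the highest value and an adjusted p of 0.0429 (exact permutation) without YAP5SA 4. That of Lgr6 to Lgr5 was −0.02, ranged from −0.50 to 0.61, and was 0.23 with 1 added to each count; its sign is not determined at 0 to 4 Lgr6 counts a library. Paired by sample number, these designs cannot reach an adjusted p under 0.05.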
